A study of Mus musculus with 8 samples.

Results

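Excitatory interneurons make up most of the superficial dorsal horn of the spinal cord, and many of them are told apart by the neuropeptide they make. The 10 genes described here are 8 genes for such peptides, Cck, Sst, Grp, Nts, Npff, Trh, Nmu and Ucn3, and the genes of a pair of peptide receptors, Grpr and Nmur2. They were taken by symbol from the 49585 genes of the deposited tables, each symbol matched 1 gene, and 9 of the 10 reached the mean of at least 1 FPKM needed for the test across genes. FPKM, the number of fragments scaled to the length of the transcript and to the mapped fragments of the library, is a level per transcript length, so genes can be set side by side. The study measured polyA RNA of the lumbar (segments 4 to 6) spinal dorsal horn of adult C57BL/6J mice. The design text gives 4 mice of each genotype, wild type or carrying a knock-out of the microRNA miR-96, and each genotype has 4 libraries. Beyond the miR-96 deletion the labels name no treatment, allele or age in weeks for either group. The labels do not say whether the deletion was present in all cells or which exact sequence was removed. The miR-96 gene (Mir96) is listed at 0 FPKM in 8 of 8 libraries, wild type included, so these polyA data do not check the genotype labels. The title of the series asks about allodynia, pain from light touch, and sodium channels; the peptide genes bear on which neuron populations of this tissue were sampled at what level.

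Neuropeptides are cut from larger precursors in dense-core vesicles and act on G protein-coupled receptors, more slowly and over a wider range than glutamate. Somatostatin (Sst) marks a large excitatory population of lamina II needed for mechanical pain, and cholecystokinin (Cck) marks excitatory neurons of the deeper laminae that take part in touch. Gastrin-releasing peptide (Grp) and its receptor (Grpr) are known for the spinal relay of itch. Neurotensin (Nts), neuropeptide FF (Npff) and neuromedin U (Nmu) mark smaller excitatory groups, thyrotropin-releasing hormone (Trh) and urocortin 3 (Ucn3) are made by few cells, and Nmur2 is the neuromedin U receptor of the central nervous system.

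The 10 genes were searched for matches to the deleted microRNA, whose sequence is shown with the match found. The mature strand of miR-96 (mmu-miR-96-5p, minus strand, chr6:30169506-30169528, RefSeq on GRCm38.p6) is shown with its seed, bases 2 to 8, in capitals. Among the longest annotated 3′ untranslated regions (UTRs) of the 10 genes, that of Nts was the only one with a match to the seed (GTGCCAA, or the form ending in A, TGCCAAA), 1 of 10 genes against 22.2% of the 13081 tested genes with such a region. The members' UTRs were short, with a median of 409 nt against 1417 nt for those genes. The Nts match started at base 361 of a region of 575 nt and is in capitals below (GENCODE M21 transcript).

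mmu-miR-96-5p: uUUGGCACuagcacauuuuugcu
Nts target match: gcagaacaatgGTGCCAAtttgattatta

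The start regions of Sst, Cck, Trh and Nmu are shown because these genes varied together in pairs across the libraries, Sst with Cck and Trh with Nmu. Each runs from 250 bases before to 50 after the RefSeq gene start (GRCm38.p6, minus strand, written 5′ to 3′ along the gene). Capitals mark matches, on both strands, to the cyclic AMP response element TGACGTCA, to its core TGACG, which the full element contains on both strands, and to the AP-1 motif TGANTCA. The windows are chr16:23890795-23891094 for Sst, chr9:121495645-121495944 for Cck, chr6:92244601-92244900 for Trh and chr5:76363728-76364027 for Nmu.

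Sst: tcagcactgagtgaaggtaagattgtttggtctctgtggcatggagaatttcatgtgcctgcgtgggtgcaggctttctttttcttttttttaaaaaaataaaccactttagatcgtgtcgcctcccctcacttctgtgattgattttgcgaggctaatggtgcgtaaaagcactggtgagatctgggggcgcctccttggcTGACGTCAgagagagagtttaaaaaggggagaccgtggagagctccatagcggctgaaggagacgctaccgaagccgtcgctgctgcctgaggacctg
Cck: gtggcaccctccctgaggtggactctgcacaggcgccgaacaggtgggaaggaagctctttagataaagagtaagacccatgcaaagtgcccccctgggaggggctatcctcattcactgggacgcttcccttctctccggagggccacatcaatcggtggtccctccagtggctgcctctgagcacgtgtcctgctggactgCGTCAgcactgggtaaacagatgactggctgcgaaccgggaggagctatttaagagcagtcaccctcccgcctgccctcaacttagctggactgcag
Trh: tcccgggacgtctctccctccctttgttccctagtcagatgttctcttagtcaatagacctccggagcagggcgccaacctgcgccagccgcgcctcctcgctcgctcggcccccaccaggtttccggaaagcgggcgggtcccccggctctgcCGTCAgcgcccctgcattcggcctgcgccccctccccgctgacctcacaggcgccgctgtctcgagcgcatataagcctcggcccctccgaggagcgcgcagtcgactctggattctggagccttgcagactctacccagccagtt
Nmu: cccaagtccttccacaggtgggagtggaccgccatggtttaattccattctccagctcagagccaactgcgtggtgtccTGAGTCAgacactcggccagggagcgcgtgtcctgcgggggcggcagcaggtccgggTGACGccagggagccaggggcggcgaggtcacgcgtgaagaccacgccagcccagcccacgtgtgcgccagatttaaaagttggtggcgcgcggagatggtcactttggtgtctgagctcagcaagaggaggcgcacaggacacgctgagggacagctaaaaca

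In the 8 member windows searched, the full element stood in that of Sst alone, at -48 from the start, and it stood in 1.79% of 32851 windows of this length over all genes. The core stood in 6 of the 8 windows (Sst, Cck, Trh, Nmu, Nts and Grpr) and in 20.8% of all windows, at -47 in Cck, -96 in Trh and -114 in Nmu. AP-1 matches stood in the windows of Nmu and Nts and in 7.81% of all windows. These matches describe letters and not binding, which was not measured.

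Depth, estimated from the steps of 1 fragment in low FPKM values, was about 31700000 to 43100000 fragments per library. Wild type replicate 1 stood apart from the other 7 libraries. Its level deviations fell with transcript length, with a slope of -0.10 log2 units for each doubling of length against -0.015 to 0.042 elsewhere, and its blood markers summed to 199 FPKM against 5.96 to 39.3. The members' longest transcripts had a median of 1283 nt, against 3193 nt over the genes tested. RNA of motor and cholinergic markers also differed between libraries. The 7 motor and cholinergic markers (for example Chat and Slc5a7) summed to 31.6 to 85.8 FPKM in wild type and 35.1 to 99.2 in knock-out, highest in knock-out replicate 1 and low, at 35.1 or less, in wild type replicates 1 and 4 and knock-out replicate 3. Markers of excitatory dorsal horn neurons outside the 10 genes were present in every library, at a summed 519.5 to 570.0 FPKM in the wild types, against 479 to 534 with miR-96 deleted. The sum weighs the most abundant markers most. The mean log2(FPKM + 1) of these markers was 4.07 to 4.24 in the wild types and 4.07 to 4.27 with miR-96 deleted.

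The members spanned a wide range of levels. Sst (chromosome 16, 23889573 to 23890958, minus strand) had a mean of 233 FPKM over the 8 libraries, above 97.5% of the genes tested. Cck (chromosome 9, 121489824 to 121495694) followed at 124 FPKM, and these genes held 56.8% and 30.2% of the summed level of all members. Sst was above Cck in 8 of 8 libraries. Nts (chromosome 10, 102481756 to 102490486) and Grp (chromosome 18, 65872820 to 65886596) came next and did not part: Nts was higher in 6 of 8 libraries, with a ratio of 0.92 to 1.17. Nmu (chromosome 5, 76333495 to 76363788) was above Trh (chromosome 6, 92242061 to 92244650) in 8 of 8 libraries, and Trh was above Npff (chromosome 15, 102523839 to 102524942) in 8 of 8. Npff and the receptor gene Nmur2 (chromosome 11, 56024987 to 56041010) could not be ordered, since Npff was higher in 4 of 8. Nmur2 was above Ucn3 (chromosome 13, 3940688 to 3945349) in 8 of 8, and Ucn3 above Grpr (chromosome X, 163513904 to 163549677) in 7 of 8. Gene spans are those of GENCODE M21 on GRCm38.

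**Figure D1:**
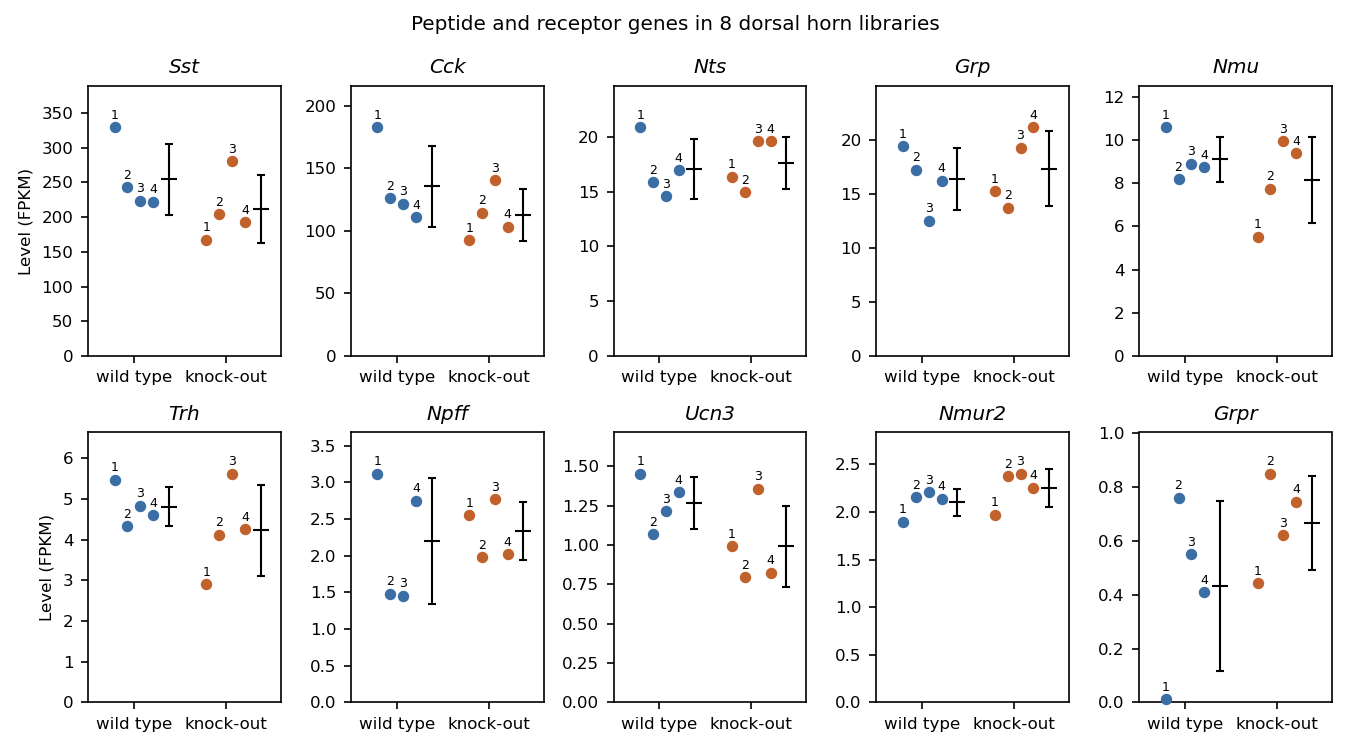
Level in FPKM (y axis, from 0, a separate scale for each gene) of the 10 genes in 4 wild-type (blue) and 4 knock-out (orange) libraries, numbered by replicate, with the mean and SD of each group as bars beside the points. The groups overlap for every gene, wild type replicate 1 is highest of the 8 for Sst, Cck, Nts, Nmu, Npff and Ucn3 and lowest for Grpr and Nmur2, and knock-out replicate 1 is lowest for Sst, Cck, Nmu and Trh.

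No difference between the genotypes passed the test for any member. None of the 9 tested passed limma's adjusted p of 0.05, none had an unadjusted p under 0.05, and in none of the 10 did the groups stand apart. The background over 15061 genes tested was 0% for the adjusted threshold, 5.52% for the unadjusted one and 3.03% for groups that do not overlap. Means were higher in knock-out for 4 of the 9 (Grp, Nts, Npff, Nmur2) and lower for 5 (Sst, Cck, Trh, Nmu, Ucn3), with a median log2 fold change of -0.17 against 0.014 over all genes tested. Log2 fold changes are knock-out minus wild type on log2(FPKM + 1), which understates the change of low genes. In these bulk samples, fewer cells of a type and less RNA per cell cannot be told apart. Among lists of other tissues, 7 of 7 genes for plasma proteins made in liver were higher in knock-out at an unadjusted p under 0.05 (median log2 fold change 1.52, summed 27.9 to 55.8 FPKM against 1.29 to 11.9), and 7 of 7 meningeal fibroblast markers had a higher mean (median 0.27), none of them at that p. Their part in the members' values was not tested.

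Among the tested members, the most abundant genes, Sst and Cck, had the largest differences on log2(FPKM + 1) in the main test. This did not hold with a pseudocount of 0.1 or with quantile normalization, where Ucn3 was at -0.344 and -0.30 and Sst at -0.277 and -0.158. Other settings also changed the order. With estimated library weights Npff was at 0.326, Sst at -0.192 and Cck at -0.168. Without wild type replicate 1 Npff was at 0.224, Sst at -0.146 and Cck at -0.101. In replicate order, the wild-type levels of Sst were 330, 243, 224 and 222 FPKM and those in knock-out were 168, 204, 281 and 193 FPKM. Knock-out replicate 3 lay above 3 of the 4 wild-type libraries, and the other 3 knock-out libraries lay below all of them. The means were 255 ± 50.9 and 211 ± 49.0 FPKM (SD, n = 4 each), a log2 fold change of -0.28 (SE 0.18, 95% interval -0.67 to 0.12, limma adjusted p = 0.62). Without wild type replicate 1 it was -0.15, and without knock-out replicate 3 it was -0.42 (limma adjusted p = 0.491). Sst is also made by some sensory neurons of the dorsal root ganglion, and the 9 ganglion markers listed summed to 2.12 to 3.62 FPKM in wild type and 1.89 to 4.53 among the knock-outs. Knock-out replicate 3 was highest, and in it Scn10a was at 0.387 FPKM against at most 0.0112 elsewhere and Mrgprd at 0.0701 against 0 in the other 7 libraries. The part of ganglion tissue in the Sst level of that library was not tested.

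Cck followed Sst closely. Its levels were 183, 126, 122 and 111 FPKM in the wild types, against 92.6, 114, 140 and 103 with miR-96 deleted. As for Sst, knock-out replicate 1 was lowest, knock-out replicate 3 highest of its group and wild type replicate 1 highest of all. The means of 135.5 ± 32.2 and 113 ± 20.5 FPKM gave a log2 fold change of -0.25 (SE 0.17, 95% interval -0.64 to 0.13, limma adjusted p = 0.622). Without wild type replicate 1 it was -0.10. With wild type replicate 1 and knock-out replicate 1 both left out, a choice made after the data were seen, Sst was at -0.044 and Cck at -0.013.

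Grp and Nts, at middle levels, showed no common direction with Sst and Cck. Grp, the itch peptide, was at 19.4, 17.2, 12.5 and 16.2 FPKM in the wild types, against 15.2, 13.7, 19.3 and 21.2 with miR-96 deleted. Its highest library, knock-out replicate 4, was the next to lowest for Sst. The log2 fold change of Grp was 0.077 (SE 0.16, 95% interval -0.29 to 0.44, limma adjusted p = 0.852). Nts, the gene with the miR-96 seed match, was at 20.9, 15.9, 14.6 and 17.0 FPKM in the wild types, against 16.4, 15.0, 19.6 and 19.6 with miR-96 deleted. Wild type held both its highest and its lowest library. Its log2 fold change was 0.047 (SE 0.13, 95% interval -0.24 to 0.34, limma adjusted p = 0.892).

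Nmu and Trh shared a low knock-out replicate 1. Nmu, whose peptide acts on Nmur2, was at 10.6, 8.20, 8.91 and 8.74 FPKM in the wild types, against 5.52, 7.76, 9.96 and 9.40 with miR-96 deleted. Trh, known best as the hypothalamic releasing hormone of the thyroid axis, was at 5.48, 4.34, 4.84 and 4.60 FPKM in the wild types, against 2.91, 4.13, 5.63 and 4.26 with miR-96 deleted. For Trh the knock-out libraries extended beyond the wild-type ones at both ends, and for Nmu at the low end. Log2 fold changes were -0.17 for Nmu (SE 0.16, limma adjusted p = 0.681) and -0.17 for Trh (SE 0.16, limma adjusted p = 0.656). Without knock-out replicate 1, which also held the most motor and cholinergic marker RNA, they were -0.012 and -0.042.

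The peptide genes of lowest level were Npff and Ucn3. Npff, a peptide that modulates opioid signalling, was at 3.12, 1.48, 1.45 and 2.75 FPKM in wild type, in which replicates 1 and 4 lay well above 2 and 3, and at 2.56, 1.98, 2.77 and 2.02 in knock-out. Wild type replicates 1 and 4 were also 2 of the 3 libraries with few motor and cholinergic markers. Knock-out replicate 1, with the most of these markers, still ranked 4 from the highest for Npff. Pearson's r of Npff with the marker level was -0.691 (exact permutation p = 0.0695, adjusted p = 0.22). The log2 fold change of Npff was 0.089 (SE 0.19, limma adjusted p = 0.857). Ucn3, a ligand of the receptor Crhr2, was at 1.45, 1.07, 1.22 and 1.34 FPKM in the wild types, against 0.992, 0.798, 1.36 and 0.825 with miR-96 deleted. Knock-out replicates 1, 2 and 4 were below all wild-type ones and replicate 3 was above 3 of them, the order also seen for Sst. Its log2 fold change was -0.19 (SE 0.14, 95% interval -0.50 to 0.11, limma adjusted p = 0.622). At an estimated 33 to 75 fragments per library, counting alone gives Ucn3 a relative error of about 13.5%, against coefficients of variation of 13.0% in wild type and 26.0% in knock-out.

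Both receptor genes were at low levels. Nmur2 was the steadiest member, at 1.90, 2.16, 2.21 and 2.14 FPKM in the wild types, against 1.97, 2.38, 2.40 and 2.26 with miR-96 deleted. Its highest library was 1.27 times its lowest, while for its ligand Nmu that ratio was 1.92. The log2 fold change of Nmur2 was 0.067 (SE 0.11, 95% interval -0.18 to 0.31, limma adjusted p = 0.802). Grpr, the itch receptor, was under the level needed for the test across genes, at 0.0122, 0.760, 0.550 and 0.408 FPKM in the wild types, against 0.443, 0.849, 0.621 and 0.745 with miR-96 deleted. Wild type replicate 1 held about 1 fragment of Grpr where the other 7 libraries held an estimated 37 to 72. The difference of means on log2(FPKM + 1) was 0.24, with an exact two-sided permutation p of 0.257 over the 70 assignments of 4 against 4 libraries, whose smallest possible p is 0.0286. With a pseudocount of 0.1 the difference was 0.825 (exact permutation p = 0.257). Without wild type replicate 1 the difference was 0.082. In that library levels fell with transcript length. The transcript of Grpr, at 2523 nt, lies between the median of the members, 1283 nt, and that of the genes tested, 3193 nt. The cause of the low value of Grpr in wild type replicate 1 was not tested.

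**Figure D2:**
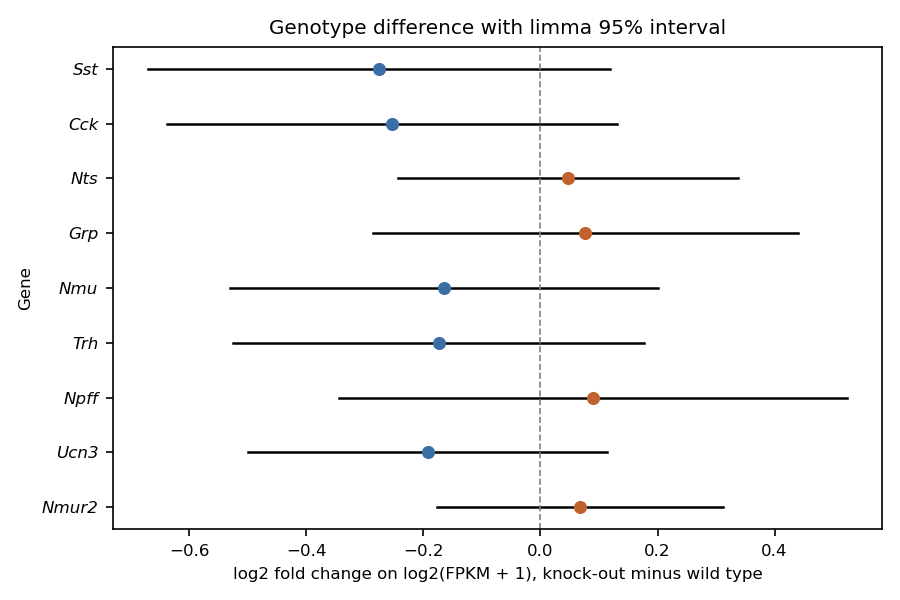
Log2 fold change on log2(FPKM + 1), knock-out minus wild type (x axis), of the 9 members tested, as points with limma's 95% interval as a line and 0 as a dashed line (points blue where the knock-out mean is lower, orange where higher). All 9 intervals include 0, and the largest differences on this scale are those of Sst (-0.28) and Cck (-0.25).

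Some pairs of these genes varied together from library to library. The level of Sst had a coefficient of variation of 22.2% over the 8 libraries, but its ratio to Cck had one of only 4.73%, from 1.78 to 2.00. The ratio was 1.89 ± 0.090 in wild type and 1.86 ± 0.098 in knock-out (SD, n = 4). On log2(FPKM + 1), Pearson's r of Cck with Sst was 0.976 (exact permutation p = 7.44e-05, adjusted p = 0.00409 over 55 relations) and Spearman's rho 0.976 (exact permutation p = 0.000397, adjusted 0.0218). Without wild type replicate 1 and knock-out replicate 1, the 2 libraries farthest from the median of Cck, r was 0.945, and with the mean of each genotype removed it was 0.97. Removing each library's trend on transcript length left r at 0.962. The points share a tissue, a library preparation and the FPKM scale, so r describes dissected samples and not single cells.

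Trh and Nmu were the other pair past the adjusted threshold. Pearson's r was 0.948 (exact permutation p = 0.00169, adjusted p = 0.0464), Spearman's rho 0.833 (exact permutation p = 0.0154, adjusted 0.141), and r was 0.817 without knock-out replicates 1 and 3, the 2 libraries farthest from the median. Nmu was 1.77 to 2.20 times Trh in every library. Grp with Nts had an r of 0.91 (exact permutation p = 0.00293, adjusted p = 0.0537) and a rho of 0.905 (exact permutation p = 0.00456, adjusted 0.0996), and missed the threshold. Without knock-out replicate 4 and wild type replicate 3 that r was 0.888. The 55 relations were the 45 pairs of members and each member with the motor and cholinergic marker level. None of those 10 passed: Trh had the strongest, an r of -0.755 (exact permutation p = 0.0159, adjusted p = 0.143) with a Spearman's rho of -0.595 (exact permutation p = 0.132, adjusted 0.364), and an r of -0.753 without knock-out replicate 3 and wild type replicate 4.

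**Figure D3:**
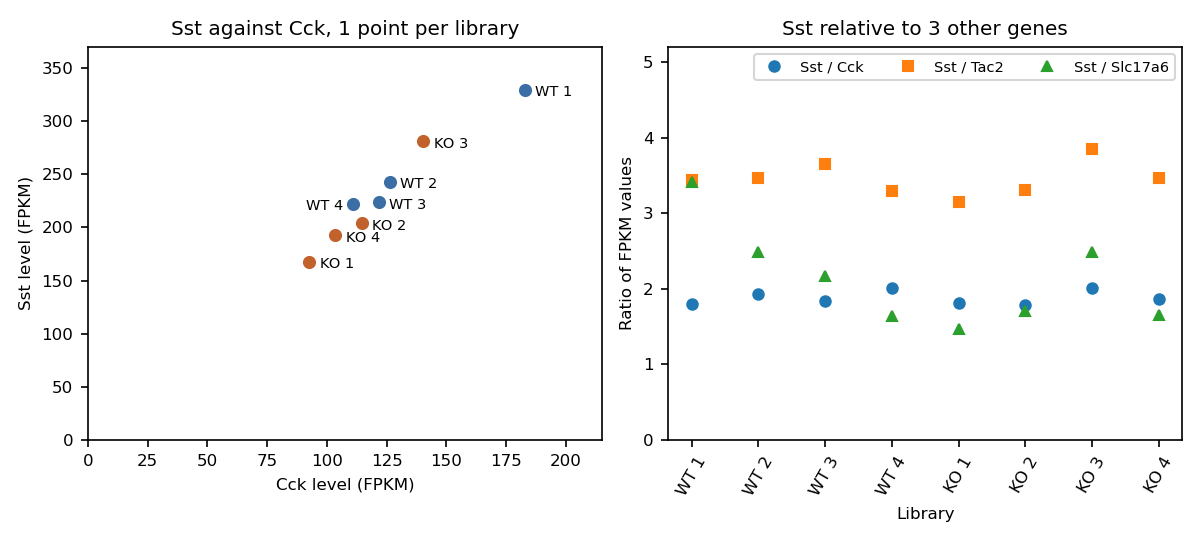
Left, Sst against Cck in FPKM, 1 point per library (wild type blue, knock-out orange). Right, Sst divided by Cck, Tac2 or Slc17a6 in each library (ratio of FPKM values, y axis from 0): the ratio to Cck stays between 1.78 and 2.00 while that to Slc17a6 runs from 1.47 to 3.41.

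A few genes outside the 10, chosen after values were seen, were set beside Sst. Over the 8 libraries, Cck ranked at place 5 among the other tested genes by correlation with Sst, and Tac2 (neurokinin B, r = 0.961), Tac1 (substance P, r = 0.956) and Npy (neuropeptide Y of inhibitory neurons, r = 0.949) were among the closest 46. By correlation with Cck, Sst ranked at place 13. Many genes shared this pattern: of 15061 tested, 226 had an r of at least 0.9 with Sst and 558 with Cck, each gene itself included. The ratio of Sst to Tac2 had a coefficient of variation of 6.32%, and that to Npy 6.71%. Other markers of excitatory neurons had lower values: Calb2 had an r of 0.593 with Sst, and Slc17a6, the vesicular glutamate transporter, an r of -0.498. Among the members, Nts (0.524), Grp (0.383) and Npff (0.332) were not close to Sst either. For Slc17a6, the ratio of Sst to it had a coefficient of variation of 30.7%. Slc17a6 was lowest, at 96.7 FPKM, in wild type replicate 1, where Sst was highest. These values are descriptions over 8 points that share library and depth.

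The genes whose levels followed each member most closely were not peptide genes. For Cck they were Tsen15 (r = 0.993) and Pigq (0.992), and for Sst the potassium channel gene Kcna6 (0.984) and Tomm34 (0.981). Dcaf11 was close to both Nts (0.963) and Grp (0.938), beside Fbxo22 for Grp (0.941). Irf8 was close to Nmu (0.975) and Prkcq to Trh (0.967). The closest for Npff were Plk5 (0.967) and Grn (0.965), for Ucn3 Gtf2h3 (0.975) and Ptcd2 (0.968), and for Nmur2 Nle1 (0.959) and Med6 (0.957). Each was chosen as the highest among all named protein-coding genes tested, so its r is a description.

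**Figure D4:**
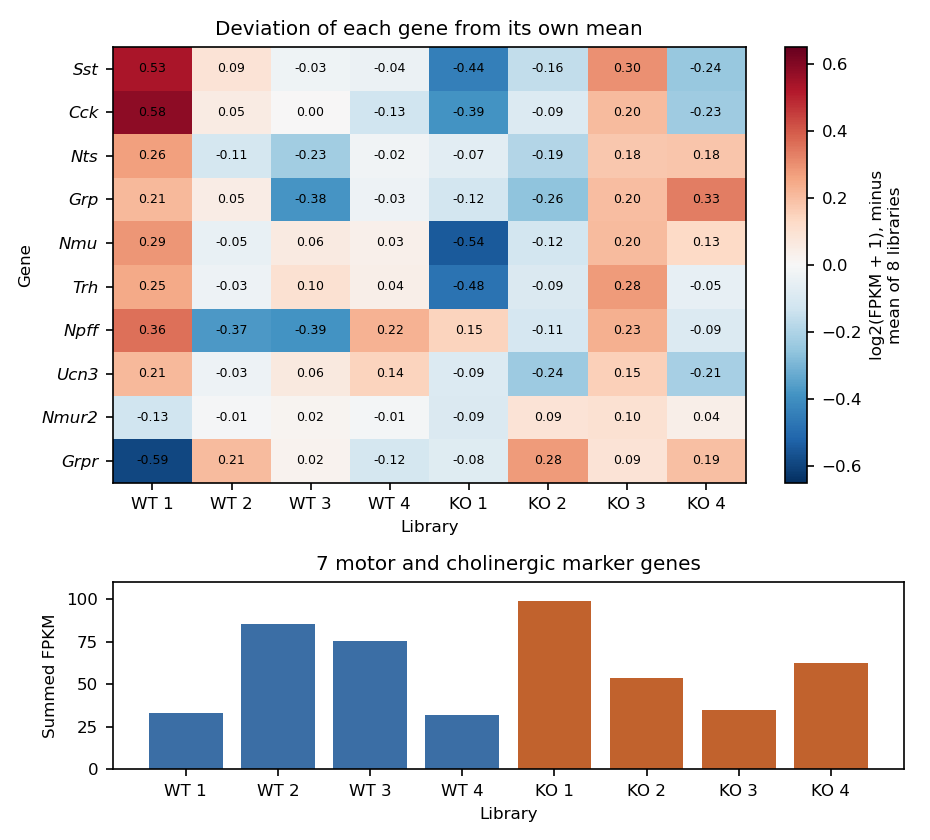
Top, deviation of each gene's log2(FPKM + 1) from its own mean over the 8 libraries (colour and printed value), for the 10 genes in rows and the libraries in columns. Bottom, summed FPKM of the 7 motor and cholinergic markers in the same libraries (wild type blue, knock-out orange): the bar of knock-out replicate 1 (99.2) is the highest, in the library in which Sst, Cck, Nmu and Trh are lowest. Wild type replicates 2 and 3 come next (85.8 and 75.4). There, in that order, Sst and Cck each hold place 3 and 4 from the highest, Nmu 6 and 4, and Trh 5 and 3.

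The lowest library was knock-out replicate 1 for Sst, Cck, Trh and Nmu, knock-out replicate 2 for Ucn3, and wild type replicate 3 for Nts, Grp and Npff. Knock-out replicate 3 had all 10 members above their own means, and knock-out replicate 1 had 9 of 10 below, Npff being the exception. Wild type replicate 1 had the 8 peptide genes above and both receptor genes below. The receptor genes also have the longest transcripts of the members, 3302 nt for Nmur2 and 2523 nt for Grpr. Those of the peptide genes are 721 to 1478 nt, so kind of gene and transcript length cannot be told apart here.

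No receptor or close relative of these peptides passed the test. Of 27 genes listed, 17 were tested, 10 with a higher and 7 with a lower mean in knock-out, none at an unadjusted p under 0.05, with a median log2 fold change of 0.070. The neurotensin receptor Ntsr2, an astrocyte gene, was the most abundant (104 ± 15.0 FPKM in the wild types, 91.35 ± 8.74 with miR-96 deleted, log2 fold change -0.18), and Ntsr1 was at 1.62 ± 0.0787 and 1.55 ± 0.239 FPKM (-0.046). Sort1, a sorting receptor that also binds neurotensin, was at 58.3 ± 11.5 and 60.4 ± 3.86 FPKM (0.070). For Cck, the brain-type receptor Cckbr was at 10.1 ± 0.846 and 10.2 ± 0.426 FPKM (0.015). The 95% interval of Cckbr was -0.19 to 0.22.

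Somatostatin receptors went in different directions without passing the test. Sstr2 was at 7.30 ± 1.03 FPKM in the wild types, against 6.15 ± 1.03 with miR-96 deleted (log2 fold change -0.22, SE 0.13), and Sstr3 at 2.90 ± 0.667 and 2.30 ± 0.241 (-0.23, SE 0.14). Sstr1 was at 5.08 ± 1.86 and 5.68 ± 0.621 FPKM (0.20, SE 0.24) and Sstr4 at 0.985 ± 0.631 and 1.40 ± 0.214 (0.34, SE 0.24). Wild type replicate 1, which held the most Sst, held the least Sstr1 and Sstr4 but the most Sstr2 (8.74 FPKM) and Sstr3 (3.80 FPKM).

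Among the other receptors, Trhr was at 3.57 ± 1.17 FPKM in the wild types, against 4.11 ± 0.892 with miR-96 deleted (log2 fold change 0.17), Trhr2 at 1.73 ± 0.436 and 2.04 ± 0.268 (0.16), and Trhde, the enzyme that breaks down TRH outside cells, at 2.55 ± 0.763 and 3.03 ± 0.117 (0.21). The neuromedin B system, sister of Grp and Grpr, was present, with the peptide gene Nmb at 3.94 ± 1.30 and 3.38 ± 0.148 FPKM (-0.14) and its receptor Nmbr at 3.11 ± 0.937 and 3.73 ± 0.413 (0.23). Nmbr was thus above Grpr in every library. Nms, a further ligand of Nmur2, was at 2.78 ± 0.828 and 2.66 ± 0.553 FPKM (-0.030). In the urocortin system, the receptor Crhr1 was at 8.39 ± 0.546 and 8.97 ± 0.540 FPKM (0.087), the binding protein Crhbp at 4.24 ± 0.781 and 3.56 ± 0.481 (-0.20), and the peptide Crh at 1.16 ± 0.278 and 1.29 ± 0.0924 (0.093). Crhr2, the receptor that Ucn3 prefers, was under the level needed for the test.

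The machinery that makes and stores peptides was expressed in all libraries. All 20 genes listed were tested, 13 with a higher and 7 with a lower mean in knock-out, none at an unadjusted p under 0.05. The 4 of lowest p were Rab3b, a vesicle GTPase (24.0 ± 2.90 FPKM in the wild types, 20.5 ± 1.34 with miR-96 deleted, log2 fold change -0.22), Pcsk1n, an inhibitor of the prohormone convertase PC1 (422 ± 105 and 332 ± 23.5, -0.32), Scg5, a chaperone of the convertase PC2 (219 ± 34.8 and 185 ± 13.3, -0.23), and Pcsk1, which encodes PC1 itself (12.5 ± 5.17 and 16.6 ± 1.00, 0.48). Each had a limma adjusted p of 0.62. For Pcsk1n, 1 of the 20 genes, the 4 knock-out libraries lay below all wild-type ones, where 3.03% of all genes tested had groups that do not overlap. In Pcsk1 wild type replicate 1 held 5.71 FPKM, against 11.7 to 17.98 in the other 7 libraries.

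Markers of the neurons around these genes gave the setting. Of 16 excitatory markers outside the members, 7 had a higher and 9 a lower mean in knock-out, 2 at an unadjusted p under 0.05 (Maf, a transcription factor of deep dorsal horn neurons, log2 fold change 0.34, and Calb2, calretinin, -0.30). Of 15 inhibitory markers, 8 were higher and 7 lower, 2 at an unadjusted p under 0.05 (the peptide genes Npy, -0.37, and Gal, -0.33). All of these had a limma adjusted p of 0.62. Groups did not overlap for 1 of the 16 excitatory markers (Maf) and 2 of the 15 inhibitory ones (Gal and Slc32a1), against 3.03% of all genes tested. The median log2 fold changes of these lists were -0.012 and 0.0044. For the 6 motor and cholinergic markers tested the median was 0.22, with 6 of 6 higher in knock-out and none at an unadjusted p under 0.05, and their part in the lower means of Sst, Cck, Nmu, Trh and Ucn3 was not tested.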

How the data were processed

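The authors deposited FPKM per gene for each of 8 libraries, per the file headers, with a gene identifier and locus. The tools named are Cufflinks, HISAT2 and SAMtools, per the submitters' processing notes. For their versions, options and use of strand, the sources used here state nothing. The notes list build mm8, but the deposited locus equalled that of GENCODE M21 (GRCm38) for 91.5% of 49326 genes with a symbol. Sequences came from RefSeq (GRCm38.p6; start regions of 8 of 10 members used) and GENCODE.

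Knock-out was compared with wild type by limma 3.58.1 in R 4.3.3 (lmFit, then robust eBayes with a mean trend; two-sided), applied to log2(FPKM + 1) of the 15061 genes whose mean reached 1 FPKM, Benjamini-Hochberg adjusted over all of them. The test was checked on simulated data. Grpr, below that level, was tested by exact permutation. FPKM are not counts. Depth was estimated from steps of 1 fragment over single-transcript genes of at least 3000 nt, assuming fragments of 200 nt: 97.9% to 99.3% of values lay within 0.15 of a whole number. Intervals and fragment numbers cover counting or library spread only.

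Members and lists were chosen with earlier results of these data known. Named genes were the 10 members, every tested receptor gene, up to 4 genes of lowest p from other lists, and the 2 named protein-coding genes most correlated with each tested member, of which some are not reported here. Slc17a6, Tac1, Scn10a, Mrgprd, Chat, Slc5a7 and Mir96 fall outside this rule and were chosen after their values were seen. Alternatives were another pseudocount, filters, rescalings, fit options, library weights, a replicate block, a length correction and leaving out libraries. Same-numbered libraries did not deviate together (r from -0.108 to 0.144), so replicate numbers were not taken as pairs.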

Additional observations from a re-analysis of the deposited data

Results flagged for a closer look

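Within-group values were screened for a library whose gap to the nearest of the others, divided by the range of the group, exceeded Dixon's 95% critical value for 4 libraries. Of 72 groups screened, 3 exceeded it, and chance alone gives about 1 in 20. Sstr1, the somatostatin receptor, was at 2.30 FPKM in wild type replicate 1 while the rest of its group lay at 5.84 to 6.14. Trhr, the receptor of TRH, was at 2.78 FPKM in knock-out replicate 3, the library with the highest Trh, while the rest of its group lay at 4.39 to 4.71. The ratio of Nmu to Nmur2 was 5.59 in wild type replicate 1, and 3.80 to 4.08 in replicates 2 to 4. Levels in wild type replicate 1 fell with transcript length, and the longest transcript is 828 nt for Nmu and 3302 nt for Nmur2. The part of length in this ratio was not tested.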

How the results depend on the processing

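No member passed the adjusted threshold under any alternative run; the lowest was Npff with estimated library weights (log2 fold change 0.33, limma adjusted p = 0.101). Over all genes, 0 passed as tested, with 831 at an unadjusted p under 0.05, 555 higher and 276 lower in knock-out; that split was 467 and 398 with median-ratio rescaling, 419 and 450 with quantile normalization and 408 and 605 with the length trend removed. With library weights 1627 passed (5014 unadjusted), and without the filter on low values 1396 were under the unadjusted threshold. Leaving out 1 library gave 0 to 1 adjusted and 325 (without knock-out replicate 1) to 3151 (without wild type replicate 4) unadjusted genes, with 352, 425 and 1438 without knock-out replicates 2, 4 and 3. Leaving out wild type replicate 1 and knock-out replicate 1 together gave 1 and 338, with 6 members higher. Trh was then at 0.011 and Nmu at 0.057, both reversed. Nmur2 reversed to -0.0022 with quantile normalization. Leaving out 1 library moved the log2 fold change of Grp from -0.038 to 0.18, of Nts from -0.020 to 0.14 and of Npff from -0.025 to 0.22, so their direction is not fixed. Sst stayed between -0.42 and -0.15 and Cck between -0.36 and -0.10. Of the 9 tested members, 1 (without wild type replicate 3) to 4 were higher in knock-out, and 2 without knock-out replicate 4, where 4 were as tested. The cause of these shifts was not tested. With the replicate number as a block, which the labels do not tie to a shared animal or day, 0 genes passed and 790 were under the unadjusted threshold, and the fold changes and calls of the 9 tested members did not change (Grpr was not run with the block). The relation of Cck with Sst (r from 0.926 to 0.984) and of Trh with Nmu (0.832 to 0.991) kept an unadjusted exact permutation p under 0.05 under all alternatives added after the data were seen. Adjustment over the 55 relations was not repeated there. For Trh with Nmu the unadjusted exact permutation p was 0.00169 as tested and 0.00439 with the length trend removed. It was 0.00575 without wild type replicate 1 and 0.024 without knock-out replicate 1. At the estimated depth, Grpr, Ucn3 and Npff rest on under 100 fragments per library.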

Other observations

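Grpr and Nmur2, the receptor genes, had a Pearson's r of 0.806 over the 8 libraries (exact permutation p = 0.00858, adjusted p = 0.0944 over 55 relations) and a Spearman's rho of 0.738 (exact permutation p = 0.0458, adjusted 0.28). Without wild type replicate 1 and knock-out replicate 2, the libraries farthest from the median of Grpr, r was 0.51, so the relation rests on those libraries. The ratio of Nmu to its receptor gene Nmur2 was 4.38 ± 0.819 in wild type and 3.59 ± 0.676 in knock-out (SD, n = 4), with overlapping groups. For the itch pair Grp and Grpr, r was -0.211 (exact permutation p = 0.642, adjusted p = 0.724) and rho -0.119 (exact permutation p = 0.793, adjusted 0.89), and r was -0.535 without knock-out replicate 4 and wild type replicate 3.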
